A study of Mus musculus with 8 samples.

Results

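The *Id*, *Hes* and *Hey* genes encode nuclear proteins, most of which hold precursor cells back from differentiation, and the H3K27ac peaks around 9 of them (*Id1*, *Id2*, *Id3*, *Id4*, *Hes1*, *Hes5*, *Hes6*, *Hey1* and *Hey2*) were read in Oli-neu cells in 2 states. The genes were listed by name, from the 21951 protein-coding genes of the annotation, with no threshold on a measured value. Every peak that touched a gene body or lay within 20 kb of it was taken, which gave 14 peaks in the proliferating list, out of 28924, and 14 in the differentiating list, out of 27965. All 3 *Hes* genes carried a promoter peak in both lists, as did 17.6% of all protein-coding genes. *Id1*, *Id2*, *Id3* and *Hey1* carried one in the differentiating list alone, as did 10.1% of all protein-coding genes. The differentiating calls at *Id2*, *Id3* and *Hes5* rested on peaks more than 1000 bp upstream of the gene start. *Hey2* had peaks away from its promoter in the proliferating list alone, and *Id4* had no peak within 20 kb in either list.

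Id proteins are helix-loop-helix proteins without a DNA-binding region. They pair with the E proteins, which are the usual partners of cell type-specific basic helix-loop-helix (bHLH) activators, and so keep those activators off DNA. The Hes and Hey proteins do bind DNA, at E-box and N-box sequences, and recruit Groucho corepressors. Notch signaling, through the DNA-binding protein RBPJ, switches on *Hes1*, *Hes5*, *Hey1* and *Hey2*, and BMP signaling, through Smad proteins, switches on the *Id* genes. In the oligodendrocyte (OL) lineage both pathways are known for delaying the step from OL precursor cell (OPC) to myelin-forming cell. H3K27ac, the acetylation of lysine 27 on histone H3, marks active promoters and enhancers.

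Oli-neu is a mouse line of embryonic OPC origin that was immortalized with the t-neu oncogene, an activated ErbB2 receptor, and the labels give its strain as C57BL/6. Proliferating cells were kept in DMEM with N2 supplement, Pen/Strep Glu, thyroid hormones (T3 and L-thyroxine), bFGF and PDGF-BB. Differentiating cells were moved, per the labels, to medium lacking growth factors for 1 day, together with the erb inhibitor PD174265 at 1 μM. The culture methods of the study give a longer differentiation for this line. No engineered allele beyond the immortalizing gene and no other treatment is given for these samples. Each state gave 1 H3K27ac chromatin immunoprecipitation (ChIP-seq) library. The 3 siCtr and 3 siPadi2 ATAC-seq samples of the series were not analysed here.

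With 1 library per state there was no spread between replicates, no test was run, and growth factor removal, inhibitor and library cannot be told apart. Each peak carries a fold enrichment, the ratio of ChIP signal to the background the peak caller expected, and its significance as −log10 p and −log10 q, where q is p after the peak caller's adjustment for multiple testing. These were ranked within their own list and not compared as levels between lists. Since the lists give no read counts, the depth at each peak is unknown. Median fold enrichment was 3.33 among all proliferating peaks and 3.13 among all differentiating peaks, and median width was 652 and 755 bp. Only 29.2% (95% exact Clopper-Pearson interval 28.7 to 29.7) of proliferating peaks and 30.1% (29.6 to 30.7) of differentiating peaks shared at least 1 base with a peak of the other list, called a counterpart below. These intervals cover counting error only. Peaks of the shortest width in each list (263 bp and 279 bp) made up 22.9% and 17.5% of them. For the labelled cell type, *Olig1*, *Olig2* and *Sox10* had a promoter peak in both lists, while *Nkx2-2*, *Pdgfra*, *Cspg4*, *Cnp*, *Mbp* and *Mag* had none in either. Within 20 kb, 8 of these 9 OL lineage markers had a peak in each list. Of all protein-coding genes, 17.6% had a promoter peak in both lists, and 62.7% had a peak within 20 kb in each list. Of the 4 markers each of astrocytes, neurons and microglia, *Slc1a3* carried a proliferating and *Syt1* a differentiating promoter peak, and none of the others in either. Markers of the other cell types had window peaks too: 3 and 3 of the 4 astrocyte, 3 and 3 of the 4 neuron and 3 and 2 of the 4 microglia markers had one in the proliferating and differentiating list.

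The promoter region began 3000 bp before the transcription start site (TSS) of the gene record and ended 100 bp after it. In proliferating Oli-neu 3 of the 9 genes had a promoter peak, against 23.7% of all protein-coding genes, and in differentiating Oli-neu 7 of the 9, against 27.7%. Promoter peaks in both lists were found at 3 of the 9, against 17.6% of all genes. None of the 9 had one in the proliferating list alone (6.13% of all genes), and 4 had one in the differentiating list alone (10.1%). The number for differentiating cells depended on how the promoter was drawn. Within 1000 bp on both sides of the TSS, *Id1*, *Hes1*, *Hes6* and *Hey1* kept a differentiating peak and *Id2*, *Id3* and *Hes5* did not. This left 4 of 9 against 31.1% of all genes, whereas the proliferating number remained 3 (*Hes1*, *Hes5* and *Hes6*). The split between lists moved with it. By that measure only *Hes1* and *Hes6* had a peak in both lists, *Hes5* in the proliferating list alone, and *Id1* and *Hey1* in the differentiating list alone. With peaks of −log10 q of at least 5 alone, *Hes1* and *Hes6* kept a differentiating promoter peak (4.25% of all genes) and no gene kept a proliferating one (3.27%).

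**Figure D1:**
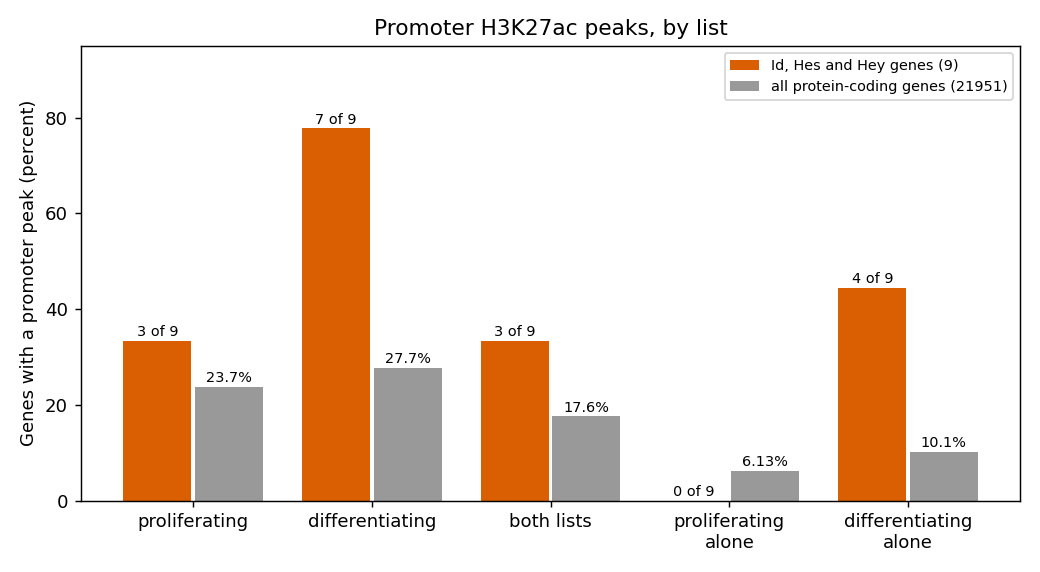
Percent of genes with an H3K27ac peak in the promoter region (vertical axis) in each list, in both lists or in 1 list alone, for the 9 *Id*, *Hes* and *Hey* genes (orange) and all 21951 protein-coding genes (grey). The orange bar is the taller in every class but the proliferating list alone, where 0 of 9 stand beside 6.13%.

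Over the whole window of gene body and 20 kb, 6 of the 9 genes had a proliferating peak and 7 a differentiating peak, beside 62.7% and 62.7% of all protein-coding genes. By this wider measure the counts stood nearer to the background than the differentiating promoter count did. That window grows with gene length, however. With 20 kb on both sides of the TSS, the same size for every gene, the counts remained 6 and 7, against 52.3% and 53.5%. Peaks were unevenly spread over the chromosomes. On chromosome 1, where *Hes6* lies, 87.2% of genes had a proliferating window peak, and on chromosome 13, where *Id4* lies, 41.5% did. The distance from the TSS to the closest peak had a median of 12097 bp over the 9 genes in the proliferating list, with 17426 bp over all protein-coding genes. In the differentiating list these medians were 1462 bp and 15682 bp. Many genes lay closer than the 9 did by median. In the proliferating list 44.2% of all protein-coding genes had a peak closer than 12097 bp. In the differentiating list 32.0% had one closer than 1462 bp. A peak covered the TSS itself of *Hes1*, *Hes5* and *Hes6* in the proliferating list, and of *Id1*, *Hes1* and *Hes6* in the differentiating list, beside 16.0% and 20.4% of all protein-coding genes.

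**Figure D2:**
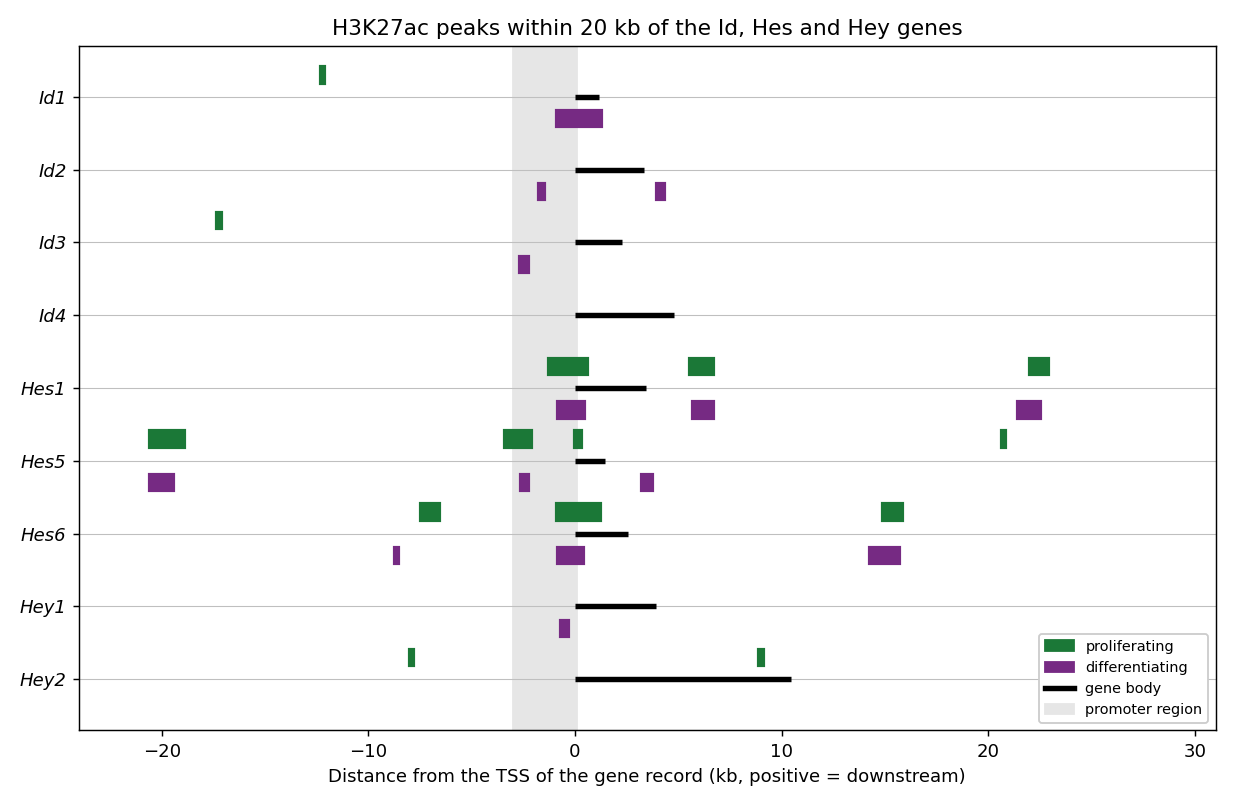
Position of every H3K27ac peak within 20 kb of the 9 genes, as the distance in kb from the TSS of the gene record, read along the direction of transcription. Green bars above each line are proliferating peaks, purple bars below it differentiating peaks, black the gene body and grey the promoter region. Green and purple bars pair up at the 3 *Hes* genes only, and the *Id4* line is empty.

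*Hes1*, the main Notch effector of the family and a repressor of proneural and myelin gene activators, had 3 peaks in each list and each had a counterpart. *Hes1* (ENSMUSG00000022528.8) spans chr16:30064384-30067796 on the plus strand of GRCm38/mm10. Its promoter peak in proliferating cells ran from 30063084 to 30065004, from 1300 bp before the TSS to 620 bp after it, with a fold enrichment of 3.52 and a −log10 q of 4.19, above 92.9% of the list. In differentiating cells the promoter peak ran from 30063499 to 30064846, lay wholly inside the proliferating one, and had a fold enrichment of 4.73 and a −log10 q of 7.91, above 98.3% of its list. This was the highest rank of any of the 28 peaks. The other pairs lay downstream of the gene. The nearer pair began 5504 bp (proliferating) and 5669 bp (differentiating) from the TSS, shared 1044 bp, and ranked above 96.1% and 79.2% of their lists. The farther pair began at 21978 bp and 21396 bp, shared 559 bp and ranked above 85.3% and 51.1%.

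The gene record of *Hes1* begins with a noncoding transcript, and the protein-coding transcript starts 956 bp further on, at 30065340. Relative to that start the promoter peaks lay upstream, ending 336 bp (proliferating) and 494 bp (differentiating) before it, so neither covered it. The 300 bases before both starts are shown because the first lie under both peaks and the second just past the end of both. Capitals mark matches, on either strand, to TGGGAA (the core of the RBPJ site), CACNAG (the N-box), GGCGCC (bound by Smads), TATAAA and CCAAT. They also mark CACGTG (an E-box) and CACGCG (a related sequence), both bound by Hes and Hey proteins. All bases were read from the RefSeq copy of GRCm38.
Hes1, chr16:30064084-30064383, plus strand, before the gene record: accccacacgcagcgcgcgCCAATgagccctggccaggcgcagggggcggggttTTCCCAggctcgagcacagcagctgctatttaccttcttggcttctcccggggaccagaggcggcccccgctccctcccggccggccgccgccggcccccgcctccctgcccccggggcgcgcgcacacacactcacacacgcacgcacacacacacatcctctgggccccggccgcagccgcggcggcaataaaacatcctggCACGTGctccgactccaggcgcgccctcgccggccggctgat
Hes1, chr16:30065040-30065339, plus strand, before the coding transcript: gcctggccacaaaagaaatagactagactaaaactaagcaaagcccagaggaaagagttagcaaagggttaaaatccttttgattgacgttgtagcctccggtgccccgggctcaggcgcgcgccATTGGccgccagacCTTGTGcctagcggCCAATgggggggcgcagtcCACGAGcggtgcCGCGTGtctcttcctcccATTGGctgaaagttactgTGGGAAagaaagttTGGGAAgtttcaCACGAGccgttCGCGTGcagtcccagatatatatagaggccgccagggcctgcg
The first held 1 RBPJ core, 246 bp before the TSS, 1 CACGTG at 42 bp and 1 CCAAT box at 281 bp. The second held RBPJ cores at 80 and 66 bp before the coding start, N-boxes at 161, 128 and 54 bp, CACGCG at 116 and 43 bp and CCAAT boxes at 175, 147 and 98 bp. By base composition the stretch under the peaks was the richer, with 73.0% GC against 56.0%. Among the 300 bases upstream of 21930 protein-coding genes, 25.9% held TGGGAA, 41.6% CACNAG, 7.24% CACGTG and 9.97% CACGCG.

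*Hes5*, a Notch target expressed in OPCs, differed from *Hes1* in that the peak over its start was found in 1 list only. *Hes5* (ENSMUSG00000048001.7) spans chr4:154960923-154962371 on the plus strand and had 4 proliferating and 3 differentiating peaks. A proliferating peak of 404 bp covered the TSS, from 65 bp before it to 338 bp after it, with a fold enrichment of 2.77 and a −log10 q of 1.75, above 37.3% of the list, and had no counterpart. A second, wider promoter peak in proliferating cells lay 3435 to 2085 bp upstream, with a fold enrichment of 2.70 and a −log10 q of 1.47, above only 16.3% of the list, the lowest rank of the 28. Its counterpart in differentiating cells, 2643 to 2215 bp upstream, had a fold enrichment of 3.22 and a −log10 q of 2.31, above 66.4%. It is the only differentiating peak in the *Hes5* promoter region, so the 3 kb reach decided whether the gene counted.

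A distal pair near *Hes5* began about 20 kb upstream in both lists. The proliferating peak was 1738 bp wide and the differentiating one 1184 bp, wholly inside it, and they ranked above 63.9% and 82.5% of their lists. The remaining peaks of *Hes5* had no counterpart. A differentiating peak 3213 to 3776 bp past the TSS, with a fold enrichment of 3.58 and a rank above 88.2%, lay beyond the gene, on a coding exon of the neighbor *Pank4*. The proliferating peak over the *Hes5* TSS also fell in the 3 kb promoter region of *Pank4* and over an exon of the noncoding gene *Gm20421*, and the peak lists cannot assign it to 1 of these. The fourth proliferating peak, 20618 bp downstream, had the shortest width the list holds. The 300 bases before the *Hes5* TSS are shown because the proliferating TSS peak begins within them and because they carry the most matches among the stretches before the 9 gene records.
Hes5, chr4:154960623-154960922, plus strand, before the gene record: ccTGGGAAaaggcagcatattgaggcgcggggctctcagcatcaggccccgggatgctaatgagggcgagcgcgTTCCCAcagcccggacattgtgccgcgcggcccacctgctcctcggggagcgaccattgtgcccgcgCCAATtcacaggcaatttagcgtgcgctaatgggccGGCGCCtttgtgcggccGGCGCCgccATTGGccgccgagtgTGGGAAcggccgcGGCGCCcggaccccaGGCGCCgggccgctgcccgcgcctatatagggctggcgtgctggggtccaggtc
They held RBPJ cores at 298, 226 and 82 bp before the TSS, CCAAT boxes at 159 and 97 bp, and GGCGCC at 123, 106, 69 and 54 bp. Among all protein-coding promoters 11.9% held at least 1 GGCGCC.

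*Hes6* encodes a family member that works against Hes1 and is known as a promoter of differentiation, unlike the others. *Hes6* (ENSMUSG00000067071.8) spans chr1:91411483-91414038 on the minus strand, with the start of the gene record at 91414038 and of its coding transcript at 91413222. In proliferating cells a peak of 2173 bp, wider than 98.2% of the list, reached from 920 bp before the first start to 1252 bp past it and covered both starts. It had a fold enrichment of 3.22 and a −log10 q of 3.02, above 82.9% of the list. In differentiating cells the peak was 1308 bp wide, lay inside the proliferating one and ended 359 bp before the coding start. Its fold enrichment was 3.68 and its −log10 q 5.10, above 94.6% of the list. As at *Hes1*, the differentiating promoter peak was narrower than its proliferating counterpart and stood higher in its own list. The shared promoter pair of *Hes5* went the same way, with widths of 1351 and 429 bp and ranks above 16.3% and 66.4%. Values over all shared promoter pairs of the lists are not given here, so this is not read as particular to these genes.

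The other *Hes6* peaks lay at neighboring genes. A shared pair about 15 kb downstream, which overlapped by 893 bp, sat on the promoter region and a coding exon of *Ilkap*, and ranked above 78.8% (proliferating) and 56.4% (differentiating). Upstream, a proliferating peak on a coding exon of *Per2*, a gene of the circadian clock, ranked above 27.03% and a differentiating peak in an intron of *Per2* above 39.3%. They did not overlap. The intronic one had the shortest width of its list, and 87.8% of its bases were annotated as repeats in the genome sequence. Of the 14 peaks of each list, 2 and 2 fell in promoter regions of protein-coding genes other than the 9, all of them *Pank4* or *Ilkap*.

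*Hey1*, a Notch target of the Hes-related family, had no proliferating peak within 20 kb and 1 differentiating peak, close to its start. *Hey1* (ENSMUSG00000040289.8) spans chr3:8663359-8667256 on the minus strand. The differentiating peak, 459 bp wide, lay 730 to 272 bp upstream of the TSS, with a fold enrichment of 4.29 and a −log10 q of 4.20, above 91.1% of the list. Measured from the starts of the noncoding transcripts of *Hey1*, its near end was 544 to 903 bp upstream. The closest proliferating peak was 156577 bp upstream. On chromosome 3, 23.1% of genes had a proliferating promoter peak and 11.3% one in the differentiating list alone. *Hey2* (ENSMUSG00000019789.9, chr10:30832359-30842801, minus strand), which codes for a close relative, showed the opposite presence. Its differentiating list had no peak within 20 kb, the closest lying 39217 bp away, and its proliferating list held 2 short peaks outside the promoter region. The peak 8055 to 7777 bp upstream had a fold enrichment of 4.53, the highest among the 14 proliferating peaks, and ranked above 92.8% by −log10 q. The other, on a *Hey2* coding exon, had a fold enrichment of 3.13, ranked above 27.05% and had the shortest width of the list. Chromosome 10 was dense in peaks: 86.1% of its genes had a proliferating window peak and 82.3% a differentiating one.

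*Id1*, a direct BMP target, had the widest of the 14 differentiating peaks. *Id1* (ENSMUSG00000042745.9) spans chr2:152736251-152737410 on the plus strand, with both transcripts starting at the same base. The differentiating peak began 940 bp before the TSS and ended 1310 bp after it, so it covered the whole gene, and its 2251 bp were wider than 98.1% of the list. Its fold enrichment was 3.16 and its −log10 q 1.86, above 48.7% of the list, which puts it near the middle by significance. No proliferating peak overlapped it. The only proliferating peak in the window, 12359 to 12097 bp upstream, had the shortest width, a fold enrichment of 3.40 and a rank above 42.9%.

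*Id2*, whose product restrains OPC differentiation, had 2 peaks in the differentiating list and none in the proliferating list within 20 kb. *Id2* (ENSMUSG00000020644.9) spans chr12:25093799-25097140 on the minus strand. The promoter peak, 344 bp wide, lay 1805 to 1462 bp upstream of the TSS, with a fold enrichment of 3.73 and a −log10 q of 3.08, above 81.8% of the list. Other coding transcripts of *Id2* start further downstream, and from them the peak began up to 2858 bp upstream. The second peak lay just beyond the 3′ end, 3918 to 4380 bp from the TSS, and ranked above 51.2%. The closest proliferating peak was 62377 bp away.

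*Id3* (ENSMUSG00000007872.3, chr4:136143497-136145755, plus strand), another BMP-responsive member, had 1 peak in each list, far apart. The differentiating peak, 483 bp wide, lay 2730 to 2248 bp upstream, with a fold enrichment of 3.16 and a −log10 q of 1.91, above 51.0% of the list. The proliferating one lay 17359 to 17097 bp upstream, with a fold enrichment of 3.83 and a −log10 q of 2.62, above 75.5%, and had the shortest width. *Id4* (ENSMUSG00000021379.2, chr13:48261228-48266026, plus strand), whose product is known to hold OPCs in the precursor state, was the one gene without a window peak. Its closest peaks, both downstream, lay 284778 bp away in the proliferating list, with a fold enrichment of 7.90 and a −log10 q of 20.01, and 248517 bp away in the differentiating list, where the fold enrichment was 3.83 and the −log10 q of 3.63. These are distances at which no link to the gene can be read. A missing peak says only that none passed the peak caller's threshold in that library.

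The sequence of the *Id1* start and the centers of the *Hey1* and *Id2* peaks are shown because a differentiating peak without a counterpart covers each, written along the direction of the gene and with the same matches in capitals.
Id1, chr2:152735951-152736250, plus strand, before the gene record: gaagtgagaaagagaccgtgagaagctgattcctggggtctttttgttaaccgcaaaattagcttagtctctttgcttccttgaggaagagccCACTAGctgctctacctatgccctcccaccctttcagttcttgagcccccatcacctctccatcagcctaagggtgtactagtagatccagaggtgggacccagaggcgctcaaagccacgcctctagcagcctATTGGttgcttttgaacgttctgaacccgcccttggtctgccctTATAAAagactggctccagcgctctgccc
Hey1, chr3:8667607-8667906, minus strand, center of the peak: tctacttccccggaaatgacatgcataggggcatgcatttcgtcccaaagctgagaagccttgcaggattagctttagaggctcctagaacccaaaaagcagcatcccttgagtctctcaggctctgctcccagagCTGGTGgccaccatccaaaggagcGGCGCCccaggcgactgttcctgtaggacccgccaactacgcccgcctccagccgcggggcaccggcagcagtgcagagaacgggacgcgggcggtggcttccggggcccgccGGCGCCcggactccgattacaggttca
Id2, chr12:25098623-25098922, minus strand, center of the peak: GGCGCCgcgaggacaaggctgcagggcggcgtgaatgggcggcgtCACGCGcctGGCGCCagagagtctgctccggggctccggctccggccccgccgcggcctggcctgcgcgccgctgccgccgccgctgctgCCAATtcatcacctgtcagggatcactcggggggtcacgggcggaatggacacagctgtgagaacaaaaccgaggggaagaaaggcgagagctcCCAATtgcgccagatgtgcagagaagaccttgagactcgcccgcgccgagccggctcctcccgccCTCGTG
Before *Id1* there was an N-box at 207 bp, a CCAAT box at 73 bp and a TATA box at 29 bp from the TSS. *Id1* was the only one of the 9 with a TATAAA in the 300 bases before the gene record (13.7% of all promoters). The 300 bases before the coding start of *Hes6* held 1 too. Counted from the first base shown, the *Hey1* peak center held an N-box at position 137 and GGCGCC at 161 and 274. The *Id2* peak center held GGCGCC at 1 and 55, CACGCG at 46, CCAAT at 136 and 230 and an N-box at 295. Among 22635 differentiating peaks of at least 300 bp, the central 300 bases held GGCGCC in 8.45%, CACGCG in 5.87%, CACNAG in 41.8% and CCAAT in 32.8%. A match to such short letters is a description of the sequence and not evidence of binding.

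Over the 300 bases before the 9 gene records, TGGGAA was found at 4 (*Hes1*, *Hes5*, *Hey1* and *Hey2*) against 25.9% of all promoters. CACNAG was found at 5 against 41.6%, CCAAT at 6 against 39.8%, and GGCGCC at 3 (*Id4*, *Hes5* and *Hey1*) against 11.9%. CACGTG was found at *Id2* and *Hes1* (7.24%), CACGCG at *Hey1* (9.97%), and the 5-letter Smad element CAGAC at 4 against 46.8%. The cAMP response element (CRE) palindrome was found at none, against 2.03%. These counts rested on the start used. Before the *Id2* coding start at 25096092 there were 1 TGGGAA, 1 GGCGCC and 4 CCAAT boxes, but no CACNAG or CACGTG. Before the *Hes6* coding start there were 1 CACNAG and 2 CCAAT boxes. Base composition differed among the genes. *Id1*, *Id2* and *Id3* had a GC content of 52.7%, 45.3% and 47.7% and a ratio of observed to expected CpG of 0.343, 0.391 and 0.352 before the gene record. For *Id2* this rested on the start used: before another of its coding starts, at 25096092, GC content was 62.7% and the CpG ratio 0.682. The other 6 ranged from 65.0% (*Hes6*) to 80.0% GC (*Hey1*), and from 0.536 to 1.01 in CpG ratio, before the gene record. Here too the start mattered. Before their coding starts *Hes1* had 56.0% GC and a CpG ratio of 0.812, and *Hes6* 62.3% and 0.652. Medians over all promoters were 53.0% and 0.468. *Id4* and *Hey2*, with 73.7% GC each, had no promoter peak in either list, and *Id1* and *Id3*, both below the median of all promoters, had one in the differentiating list, as did *Id2*, which lay below or above the median by the start used.

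**Figure D3:**
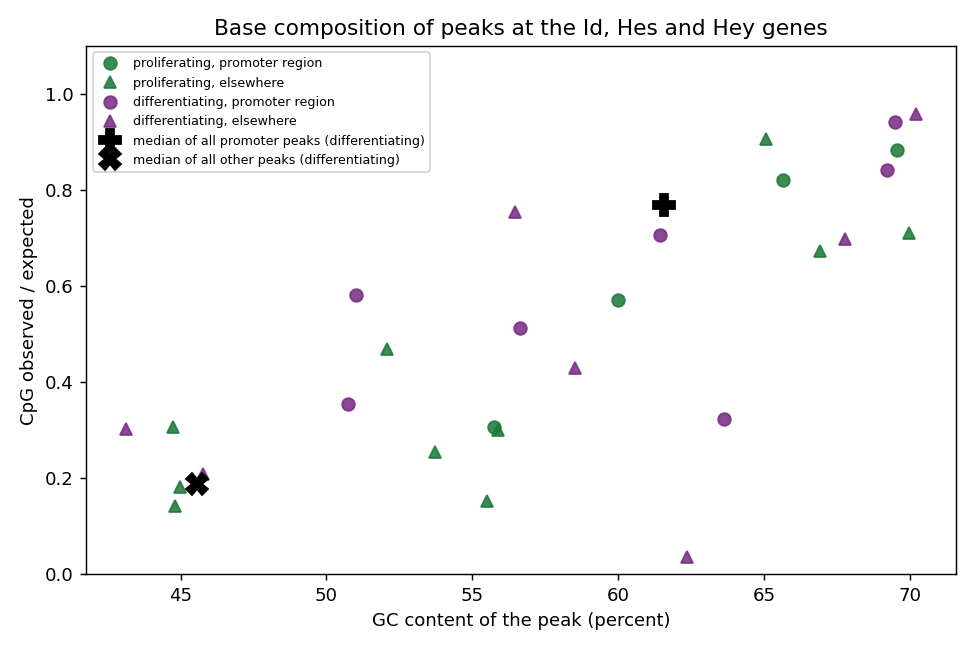
GC content in percent (horizontal axis) against the ratio of observed to expected CpG (vertical axis) of the 28 peaks, by list (color) and position (circles in the promoter region, triangles elsewhere). The black marks are the medians of all differentiating promoter peaks (61.6% GC, CpG ratio 0.768) and of all other differentiating peaks (45.6%, 0.189), and most of the 28 peaks lie at higher GC than the latter.

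Within the peaks themselves, composition followed position only in part. The *Hes1* promoter peaks had 65.6% (proliferating) and 69.2% GC (differentiating) and the *Id2* promoter peak 69.5%, with CpG ratios of 0.822, 0.842 and 0.941. The *Id1* and *Id3* differentiating peaks had 51.0% and 50.7% GC with ratios of 0.581 and 0.354, below the medians of differentiating promoter peaks. The distal *Hes5* pair had 45.0% and 45.8% GC, near the median of peaks outside promoters. The short proliferating peak 12 kb upstream of *Id1* had 70.0% GC and a CpG ratio of 0.711, although no gene was annotated there.

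Across the 9 genes, 7 of 14 peaks in each list had a counterpart, against 29.2% of all proliferating and 30.1% of all differentiating peaks. All of these 7 and 7 lay at *Hes1*, *Hes5* and *Hes6*. None of the *Id* or *Hey* peaks did. In the proliferating list the peaks with a counterpart had a median width of 1351 bp and those without one 263 bp, and in the differentiating list 1184 and 463 bp. Of the peaks without a counterpart, 4 proliferating and 1 differentiating had the shortest width. Counterparts were more common among highly ranked peaks of the whole lists: over 5 equal bins of −log10 q, from the lowest to the highest, the share rose from 11.3% to 64.9% (proliferating) and from 8.80% to 69.5% (differentiating). In the highest bin, 4 of 5 proliferating and 3 of 6 differentiating peaks of the 9 genes had a counterpart. The part of rank and width in the *Id* and *Hey* peaks seen in 1 list was not tested.

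**Figure D4:**
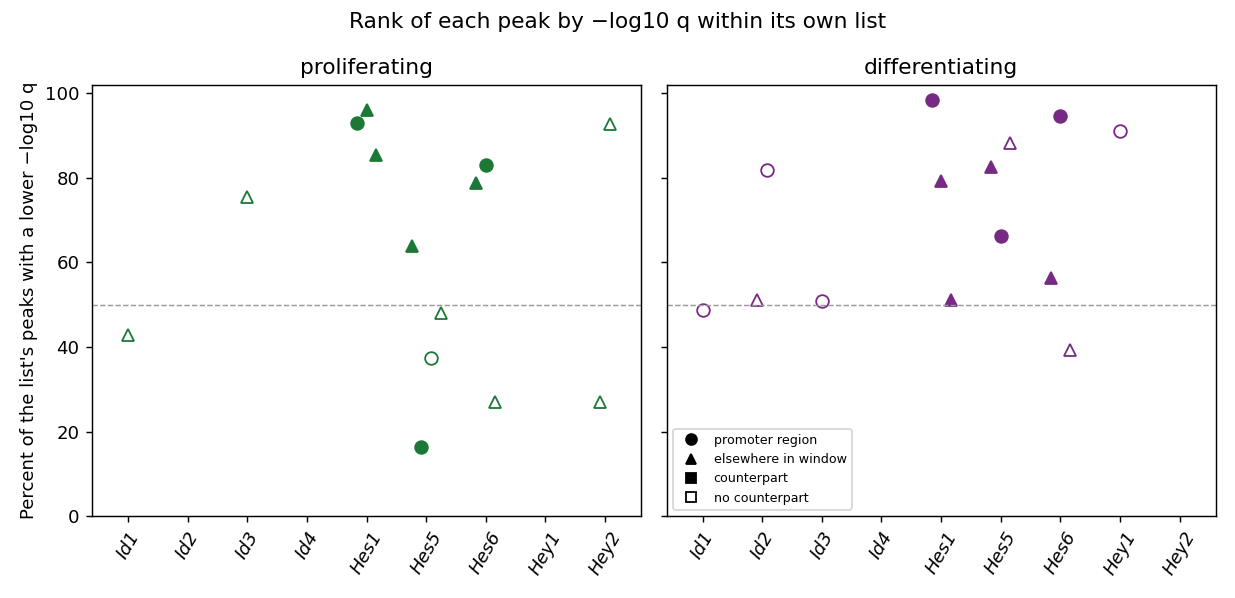
Percent of a list's peaks with a lower −log10 q (vertical axis), for each peak of the 9 genes, in the proliferating (left) and differentiating (right) list. Circles lie in the promoter region and triangles elsewhere in the window, filled symbols have a counterpart, and the dashed line is the middle of the list. Filled symbols stand at the *Hes* genes alone, and 6 of the 7 differentiating promoter peaks stand above the line, *Id1* lying just under it at 48.7.

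By rank, the 14 proliferating peaks had a median percentile of 69.7 and the 14 differentiating peaks 72.8, with 3 and 3 in the top 10% of their lists. For proliferating cells these were the *Hes1* promoter and near downstream peaks and the *Hey2* upstream peak. For differentiating cells they were the promoter peaks of *Hes1*, *Hes6* and *Hey1*. The differentiating promoter peaks had a median percentile of 81.8 (n = 7, from 48.7 to 98.3) and the differentiating peaks elsewhere 56.4 (n = 7). In the proliferating list the order was the other way, with a median of 60.1 for promoter peaks (n = 4, from 16.3 to 92.9) and 69.7 for the rest (n = 10). The matching medians over all promoter peaks of the lists are not given here, so neither order is read as particular to these genes.

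Genes that act with the 9 were counted over 27 related genes, all matched in the annotation. Of these, 12 had a promoter peak in both lists, as the *Hes* genes did, against 17.6% of all protein-coding genes. Another 2 had one in the proliferating list alone, against 6.13%, and 13 had none. Likeness here is no more than the same presence or absence in 2 libraries. Among other repressors of the family, *Bhlhe40* and *Bhlhe41* had a promoter peak in both lists, and *Hes2*, *Hes3*, *Hes7*, *Heyl* and *Helt* in neither, as *Id4* and *Hey2*. Of the E proteins that Id proteins bind, *Tcf3* had a promoter peak in both lists, above 90.1% and 97.4%, and *Tcf4* and *Tcf12* in neither. The OL activators *Olig1* and *Olig2* had one in both. For the Groucho corepressors that Hes proteins recruit, *Tle3* and *Tle4* had one in both lists and *Tle2* and *Aes* (also named *Tle5*) in the proliferating list alone, and *Tle1* and *Tle6* in neither. On the input side, the BMP receptors *Bmpr1a* and *Bmpr2*, the signal transducers *Smad1* and *Smad5*, and *Nrarp*, a Notch feedback gene, had one in both lists, while *Notch1*, *Rbpj*, *Bmpr1b* and *Smad9* had none. Within 20 kb, 26 of the 27 had a proliferating peak (all but *Heyl*) and 26 a differentiating peak (all but *Helt*). Among all protein-coding genes 62.7% did in each list, a share not matched for gene length.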

How the data were processed

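H3K27ac ChIP-seq was measured in 1 proliferating and 1 differentiating Oli-neu library. Per the submitters' processing notes and the study's methods, the authors aligned reads to GRCm38/mm10 with Bowtie2 2.1.0, removed duplicates with SAMtools, called broad peaks per library with MACS2 2.0.10 and filtered blacklisted regions with bedtools; an input library is not given in the sources used here. The deposited lists have no header, and column 4 of each row holds a fold enrichment (a ratio), a −log10 p-value and a −log10 q-value, read in the order MACS writes them; all values were taken as deposited. The highest q was 0.0995 and 0.0983, above the cutoff that the study's methods state, while every peak at the 9 genes had a q of at most 0.05. The lists give no read counts, so depth per peak is unknown.

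Genes came from GENCODE M21 on the same build. All 56884 peaks on chromosomes 1 to 19, X and Y ended inside the GRCm38 chromosomes. The study's promoter definition was used, 3000 bp upstream to 100 bp downstream, and an overlap of 1 base or more counted. Sequences of 300 bases were read from the RefSeq GRCm38.p6 genome. Named genes were the 9 genes, other protein-coding genes whose promoter region a window peak overlapped, and a list of 27 related genes, with 21 cell type markers; 2 other genes of these lists are not reported here. The genes and lists were chosen with earlier results of these data known.

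With 1 library per state no test was run. Alternatives were other windows, promoter widths, transcript starts, peak thresholds and overlap rules. Python 3.11.15 with numpy 2.4.6, pandas 2.3.3, scipy 1.17.1 and matplotlib 3.10.9 was used. The promoter counting was tested on simulated peak lists over 3834 genes, where 200 of 200 planted peaks were recovered. Each planted peak began inside a promoter region, so this checks the counting code and not the calls in real lists.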

Additional observations from a re-analysis of the deposited data

How the results depend on the processing

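Of 46 alternative counts, 33 stayed within 1.5 times the reported one and 13 did not. A promoter that began 6000 bp before the TSS, the TSS of every transcript, the TSS of coding transcripts (chosen after seeing the data), a q of at most 0.05 and equal numbers of peaks left 3 genes with a proliferating and 7 with a differentiating promoter peak. With 1000 bp on either side of the TSS, the genes with a differentiating promoter peak came to 4, and the proliferating peaks at promoters of other genes to 1. With a −log10 q of at least 5, genes with a window peak came to 1 (proliferating) and 2 (differentiating), window peaks to 1 and 2, genes with a promoter peak to 0 and 2, and peaks with a counterpart in the whole other list to 1 and 2. A 10 kb window held 8 proliferating peaks, and a 50 kb window 28 proliferating and 24 differentiating peaks. With 10 kb, *Id1* and *Id3* lost their proliferating window peak. A reciprocal overlap of 0.5 left 5 and 5 peaks with a counterpart. No paired analysis was possible because no result comes from a test and each H3K27ac state is 1 library, so only 1 number could pair them. Without replicates or read counts, a peak found in 1 list cannot be told from one just under the caller's threshold in the other.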
